A study of Campylomormyrus compressirostris and Campylomormyrus rhynchophorus and Campylomormyrus compressirostris x Campylomormyrus rhynchophorus with 15 samples.

Results

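The 8 gene models described here are *TULP4*, *DUSP7*, *FGD5*, *PKD1*, *DNM2*, *PLEKHA8*, *NCL* and *NLRP12*, measured in the electric organ, out of 34492 gene models in the files and 18489 that were tested. They were chosen by gene identifier from the study's list of 39 genes whose *com* allele takes a different share of the transcripts in juvenile and adult hybrids, and had been singled out, on the same deposited values, as genes whose total level is alike in both parents. That likeness is therefore no finding, and it was checked first. All 8 were detected in all 15 libraries and passed the filter on low counts. Allele shares themselves were not analysed here: every value below is the total level of a gene, both alleles together.

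The samples were electric organs of juvenile weakly electric fish of the genus *Campylomormyrus*, labelled with a length of 6 cm. Of these, 5 fish were *C. compressirostris* (*com*, fish com104, com121, com123, com124 and com125), 5 were *C. rhynchophorus* (*rhy*, rhy49 to rhy53), and 5 were F1 hybrids (comrhy59 to comrhy63) with *com* as father and *rhy* as mother. The fish were untreated, and poly(A) RNA was sequenced in 1 strand-specific library per fish. The samples held no reciprocal cross, and the adult fish of the study were not analysed here. Library totals ranged from 8346577 to 11549622 counts for *com*, from 12502114 to 13927972 for *rhy* and from 12973350 to 19259304 for hybrids, and the most abundant gene took 3.63 to 19.3% of a *com* library, against 2.64 to 5.183% in *rhy* and 4.38 to 5.89% in hybrids. *SCN4AA* and *KCNA7A_1*, a sodium and a potassium channel gene of electrocytes, were counted in every library. Reads of *rhy* and of the hybrids were counted on gene models of *com*, and what sequence differences between the species do to the counts was not tested.

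An F1 hybrid holds the alleles of both species in the same nucleus, where they meet the same regulatory proteins. A difference between alleles that lies in the DNA next to a gene persists there as unequal transcription of the alleles, whereas a difference in a diffusible regulator reaches both. Total level and allele share are separate readouts: a gene can keep its total while its alleles exchange shares, and the reverse. The electric organ derives from muscle, and its electrocytes keep excitable membranes but little contractile apparatus.

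Per transcript length, the 8 genes covered a broad range of levels. In TPM, which divides counts by gene length and by the library's sum, *NCL* was the most abundant, with a mean of 361 TPM over the 15 libraries, followed by *DNM2* (86.1), *DUSP7* (49.7), *TULP4* (48.2), *NLRP12* (35.1), *PLEKHA8* (26.9), *FGD5* (21.5) and *PKD1* (20.9). *NCL* lay above *DNM2*, *DNM2* above *DUSP7*, and *TULP4* above *NLRP12* in 15 of 15 libraries. Other neighbours changed places. *DUSP7* exceeded *TULP4* in 9 libraries, 1 of *com*, 4 of *rhy* and 4 of the hybrids. *NLRP12* exceeded *PLEKHA8* in 13 libraries, 3 of *com*, 5 of *rhy* and 5 of the hybrids. *PLEKHA8* exceeded *FGD5* in 11, 5 of *com*, 4 of *rhy* and 2 of the hybrids. *FGD5* exceeded *PKD1* in 7, 2 of *com*, 4 of *rhy* and 1 of the hybrids. None of these orders held in all 15 libraries, and the split differed between groups. Every count of the 8 genes was a whole number, so RSEM divided no read of theirs between gene models. The counts of 89.2% of all genes tested were likewise whole in every library. The mean count was lowest for *DUSP7* in *com*, at 258.8, and highest for *NCL* in *rhy*, at 14070.

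The label of similar parental totals did not hold for every gene. *NCL*, *FGD5* and *PKD1* were higher in all 5 *rhy* fish than in any *com* fish, and the group means of the other genes differed less, with overlapping groups. Of the 8 genes, 3 had groups that do not overlap, where 30.2% of all genes tested did so. Since the genes were selected on this contrast, this count describes them, and no test of it is given. The *com* share of the summed parental level is the mean level in *com* over the sum of the means in *com* and *rhy*. Its 95% interval, not adjusted for the number of genes, crossed 0.5 for 2 of the 8, *TULP4* (0.539, 0.479 to 0.599) and *PLEKHA8* (0.541, 0.471 to 0.610). Of all 18489 genes tested, 9655 had an unadjusted p under 0.05 between *rhy* and *com* (edgeR). The 8 were chosen on this contrast, so no p is given for them, and their intervals and this count of 2 only describe them. The share was 0.541 for *DNM2* (0.503 to 0.578), 0.452 for *NLRP12* (0.415 to 0.488) and 0.406 for *DUSP7* (0.327 to 0.491). It was lowest for *PKD1* (0.379, 0.340 to 0.421), *FGD5* (0.366, 0.315 to 0.420) and *NCL* (0.333, 0.303 to 0.363). Over all genes tested the median share was 0.503, with quartiles at 0.411 and 0.610, so these last 3 and *DUSP7* lay below the lower quartile. The shares depend on the scaling. TMM, the scaling between libraries used for these shares, was not applied to TPM. Its factors were 0.890 to 0.948 in *com* and 0.996 to 1.05 in *rhy*. On TPM the difference of *rhy* from *com* moved upward for all 8 genes, and the median of all genes tested moved the same way, by 0.15. This brought *TULP4*, *DNM2* and *PLEKHA8* closer to equal levels and took the others further from them.

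**Figure D1:**
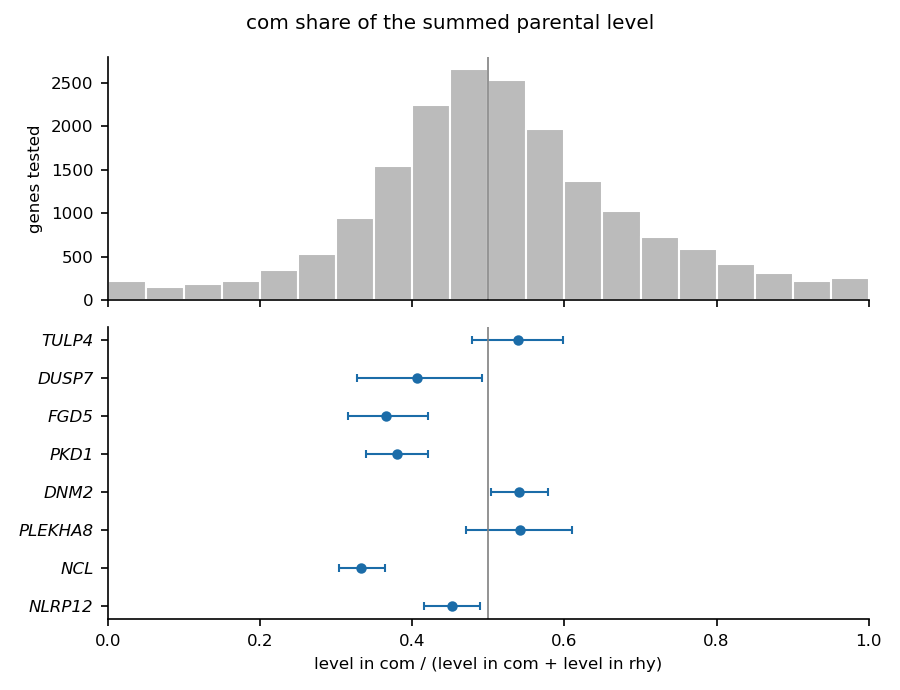
The *com* share of the summed parental level, on an axis from 0 (all in *rhy*) to 1 (all in *com*), as a histogram over the 18489 genes tested (top) and for the 8 genes with 95% intervals (bottom). *NCL*, *FGD5* and *PKD1* sit at 0.333, 0.366 and 0.379, left of the line at equal levels, whereas the intervals of *TULP4* and *PLEKHA8* cross it.

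Levels are given below as CPM, counts relative to the library total after TMM scaling, and differences on the log2 scale come from 1 edgeR fit of all 15 libraries, with p adjusted over all 18489 genes. The contrasts share libraries, so they are not independent of each other. In bulk tissue, fewer cells of a type and less RNA per cell cannot be told apart, for any of these genes.

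**Figure D2:**
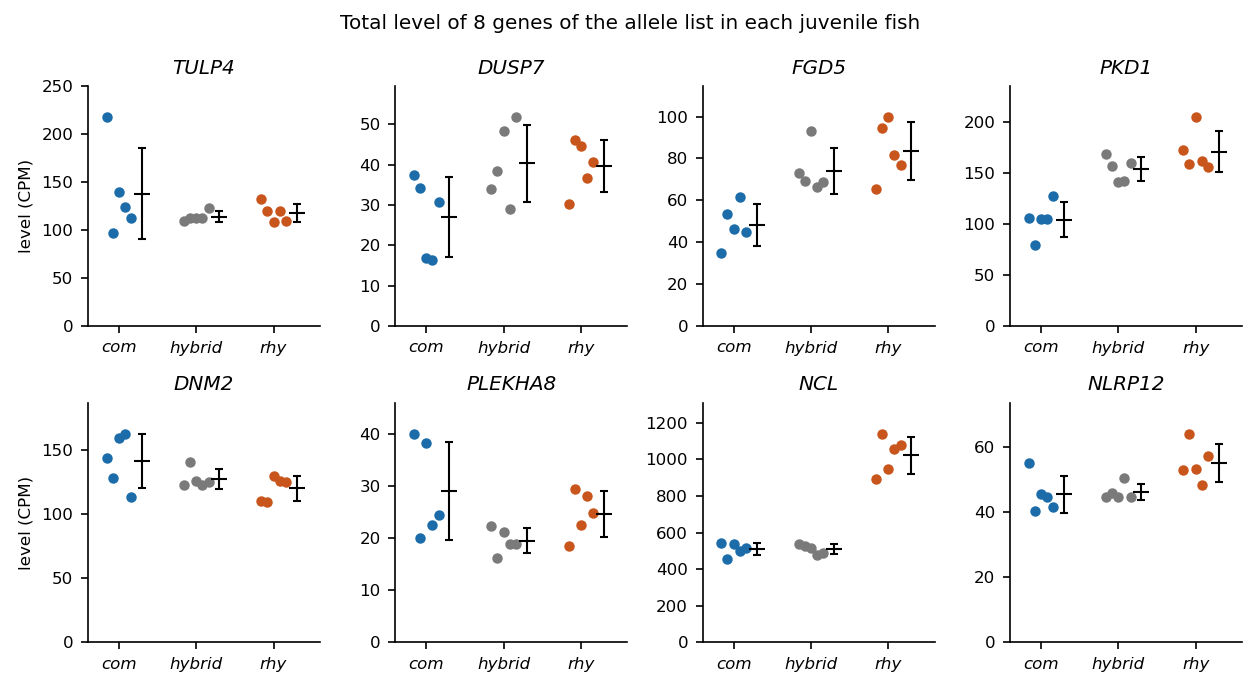
Level in CPM (vertical axes from 0, a scale per gene) of the 8 genes in each *com*, hybrid and *rhy* fish (points), with the mean and SD of the 5 fish of a group beside them. Hybrids overlap *com* for *NCL* and *rhy* for *FGD5* and *PKD1*, and com104 stands at 217 CPM for *TULP4*.

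*NCL* encodes nucleolin, an abundant nucleolar protein that binds RNA and takes part in the making of ribosomes. Its gene model is maker-ptg000057l-snap-gene-35.19. Its level in *com* was 541, 457, 536, 500.0 and 518 CPM in fish com104 to com125, and in *rhy* 893, 1140.1, 946, 1059 and 1078 CPM in rhy49 to rhy53. The 5 hybrids had 540.2, 526, 516, 475 and 487 CPM. The hybrids thus lay among the *com* fish, and the lowest *rhy* fish stood above the highest fish of both other groups. The group means were 510.3 ± 34.1 in *com*, 1023 ± 101 in *rhy* and 509 ± 27.2 CPM in hybrids (SD, n = 5 each).

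For *NCL*, the hybrids were lower than *rhy* by a log2 difference of -1.01 (SE 0.09, adjusted p = 2.42e-06, edgeR), a level of 0.497 times that of *rhy* (95% interval 0.434 to 0.569). Against *com* the difference was -0.00 (95% interval -0.20 to 0.19, adjusted p = 0.981), or 0.997 times (95% interval 0.872 to 1.14). Against the midpoint of the parental log2 levels, the mean of both parents, the hybrids fell by 0.51 (SE 0.08, adjusted p = 0.00112). Placed on a scale where the *com* mean is 0 and the *rhy* mean is 1, the hybrids averaged -0.00 ± 0.08 (SD, n = 5). The level in *rhy* was 2.01 times that in *com* (95% interval 1.75 to 2.30), given as a description. *NCL* also had a low dispersion between fish: 92.7% of all genes tested had a larger one. Its mean level was at percentile 99.1 of these genes, so nearly all of them had a lower level. Its coefficient of variation was also set against 7918 genes with a mean count of at least 100 in each group. Of these, 93.8% in *com*, 68.8% in *rhy* and 93.2% in hybrids had a larger one.

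*FGD5* and *PKD1* showed the other order, with the hybrids near *rhy*. *FGD5* encodes an exchange factor for the small GTPase Cdc42 that is known in mammals from endothelial cells and the growth of blood vessels, and its gene model is maker-ptg000135l-snap-gene-36.1. Its level in *com* was 34.6, 53.7, 46.2, 61.7 and 44.9 CPM, and in *rhy* 65.3, 94.7, 99.6, 81.5 and 76.7 CPM. The hybrids had 72.8, 69.0, 93.1, 66.5 and 68.5 CPM. Every hybrid exceeded every *com* fish, and the hybrids and *rhy* overlapped.

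The rise of *FGD5* in hybrids against *com* was 0.62 on the log2 scale (SE 0.15, adjusted p = 0.00947), or 1.53 times (95% interval 1.22 to 1.92). Without comrhy61, the hybrid with 93.1 CPM, it was 0.52 (adjusted p = 0.0280). Against *rhy* the difference was -0.18 (95% interval -0.50 to 0.15, adjusted p = 0.413), and against the mean of both parents 0.22 (adjusted p = 0.291). On the scale from *com* at 0 to *rhy* at 1, the hybrids stood at 0.79 ± 0.25. The parents differed by 0.79 (95% interval 0.47 to 1.12), given as a description.

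Both endothelial markers of the list were detected, and they moved in opposite directions between the groups. Their summed level was 64.3 to 128 CPM in *com*, 501 to 651 CPM in *rhy* and 98.0 to 194 CPM in hybrids, and *CD34* made up most of the sum in *rhy*. *CD34*, a surface protein of vessel and blood-forming cells, was higher in hybrids than in *com* by 1.26 (adjusted p = 8.23e-04) and lower than in *rhy* by a difference of -2.51 (adjusted p = 1.99e-06). *SCARF1*, a scavenger receptor of endothelium, differed from *com* by -0.03 (adjusted p = 0.959) and was higher in hybrids than in *rhy* by 1.19 (adjusted p = 0.00974). Both markers belong to the same list of 39 genes. The part of vessel cells in the level of *FGD5* was not tested.

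*PKD1* encodes polycystin 1, a large membrane protein that acts with a cation channel and is known from polycystic kidney disease. Its model, maker-ptg000173l-snap-gene-11.29, is the longest of the 8 at 13485 bases. Its level in *com* was 106, 79.1, 105, 105 and 127 CPM, in *rhy* 173, 159, 205, 162 and 156 CPM, and in hybrids 169, 157, 141, 143 and 160 CPM. The lowest hybrid lay above the highest *com* fish, and 3 hybrids lay within the range of *rhy*.

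Against *com*, *PKD1* was higher in hybrids by 0.56 (SE 0.12, adjusted p = 0.00314), or 1.47 times (95% interval 1.24 to 1.75). Against *rhy* the difference was -0.15 (95% interval -0.40 to 0.10, adjusted p = 0.352) and against the mean of both parents 0.20 (adjusted p = 0.195). The hybrids stood at 0.79 ± 0.16 between *com* at 0 and *rhy* at 1. The hybrid with the lowest position of *PKD1* (0.625) lay above the hybrid with the highest position of *NCL* (0.0847). Positions were computed only for *NCL*, *FGD5* and *PKD1*, whose parental groups do not overlap in these libraries. They take the parental means as fixed, so their SD holds the spread of the hybrids alone. The parents differed by 0.71 (95% interval 0.46 to 0.96). Since neither *FGD5* nor *PKD1* passed the test against the mean of both parents, their hybrids cannot be told apart from a level midway between the species.

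*PLEKHA8*, a phosphoinositide-binding glycolipid transfer protein of the Golgi, was the third gene that passed against *com*, and its call was the least stable. The model maker-ptg000312l-snap-gene-7.122 had 39.9, 20.1, 38.2, 22.4 and 24.3 CPM in *com*, 18.5, 29.4, 22.4, 28.0 and 24.7 CPM in *rhy*, and 22.3, 16.2, 21.1, 18.8 and 18.8 CPM in hybrids. The *com* fish com104 and com123 stood above all others, and of the remaining 3 *com* fish com121 lay within the range of the hybrids and com124 just above it. The hybrids fell by 0.58 against *com* (SE 0.19, adjusted p = 0.0422). Without com104 the difference was -0.43 and without com123 -0.46, and neither passed (adjusted p = 0.103 and 0.119). Leaving out 1 fish at a time, the call held in 6 of 15 fits. Against *rhy* the difference was -0.34 (adjusted p = 0.197) and against the mean of both parents -0.46 (adjusted p = 0.0841).

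Across the 8 genes, the contrast of the hybrids with *com* thus gave 2 genes that rose and 1 that fell, against 21.9% of all genes tested, and 0 past a log2 difference of 1, against 9.08%. At an unadjusted p under 0.05 there were 4 of the 8, against 6480 of all 18489 genes. The hybrids fell against *rhy* for 1 gene, *NCL*, where 28.6% of all genes passed. That gene also passed the log2 limit of 1, where 12.1% of all genes did so, but its value lies at the limit and ranged from -1.05 to -0.97 over the alternatives. Against the mean of both parents 1 gene passed, *NCL*, where 13% of all genes did so, and 0 passed with the log2 limit, where 4.54% did so. Groups did not overlap for 2 genes between hybrids and *com* (14.9% of all genes) and for 1 gene between hybrids and *rhy* (21.8%). None of the 8 had all 5 hybrids above, or all 5 below, all 10 parents.

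**Figure D3:**
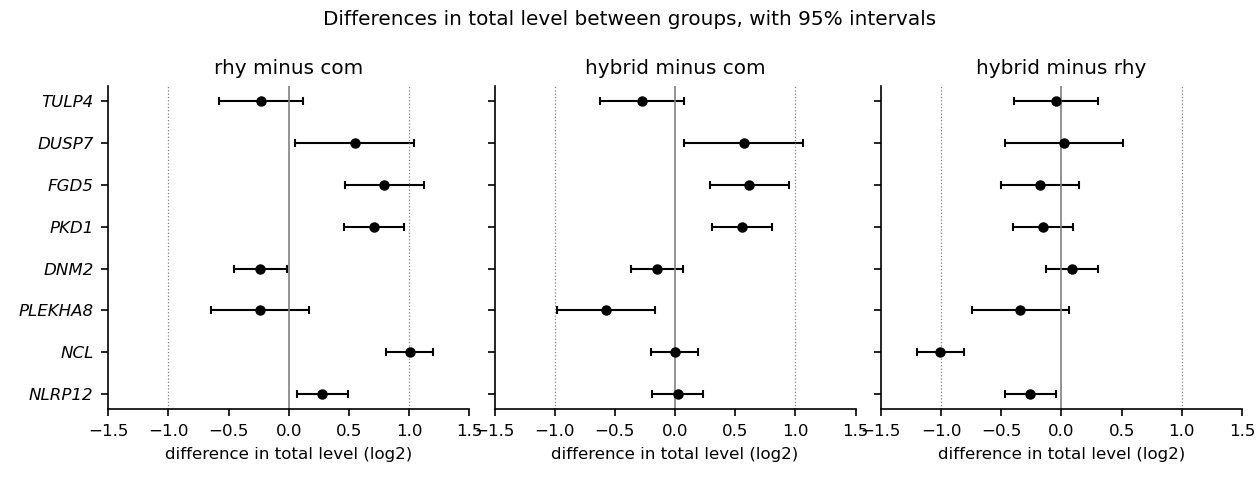
Differences in total level of the 8 genes on the log2 scale (horizontal axes) between *rhy* and *com*, hybrids and *com*, and hybrids and *rhy*, with 95% intervals that are not adjusted for the number of genes; dotted lines mark a log2 difference of 1 in either direction. *NCL* is at -0.00 against *com* and -1.01 against *rhy* in the hybrids, whereas *FGD5* and *PKD1* are near 0 only against *rhy*.

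*DUSP7*, a phosphatase that switches off ERK kinases, had wide groups. The model maker-ptg000085l-snap-gene-5.130 had 37.5, 34.2, 16.8, 16.3 and 30.7 CPM in *com*, 30.4, 46.1, 44.5, 36.7 and 40.6 CPM in *rhy*, and 33.9, 38.5, 48.3, 29.1 and 51.7 CPM in hybrids. The fish com123 and com124 lay far below all others, and the rest of the groups overlapped. The hybrids differed from *com* by 0.57 (SE 0.23, adjusted p = 0.0919), which misses the threshold, and from *rhy* by 0.02 (95% interval -0.47 to 0.51, adjusted p = 0.954). Leaving out 1 fish at a time, it passed in 1 of 15 fits, without com104 (0.72, adjusted p = 0.0398). Without com123 or com124 the difference was 0.44 or 0.43 (adjusted p = 0.198 for each), and without comrhy63 it was 0.46 (adjusted p = 0.191).

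*NLRP12*, named after a cytoplasmic sensor that restrains inflammatory signalling in mammals, was measured on the model maker-ptg000332l-augustus-gene-12.62. This family has many similar copies in fish genomes, and how reads of near-identical copies were assigned could not be checked beyond the whole counts above. Its level was 54.8, 40.2, 45.4, 44.5 and 41.6 CPM in *com*, 52.8, 63.9, 53.01, 48.4 and 57.1 CPM in *rhy*, and 44.5, 45.8, 44.7, 50.4 and 44.6 CPM in hybrids. Of the 5 hybrids, 4 lay below every *rhy* fish. The difference from *rhy* was -0.26 (SE 0.10, adjusted p = 0.0631) and missed the threshold. Leaving out 1 fish at a time, it passed in 1 of 15 fits, without com104, where the difference was -0.26 as before (adjusted p = 0.0317), and the adjusted p reached 0.156 without rhy50. The difference from *com* was 0.02 (95% interval -0.19 to 0.23, adjusted p = 0.903). The leukocyte markers *LCP1* and *SIGLEC1* together had 1.28 to 2.44 CPM in *com*, 0 to 0.375 CPM in *rhy* and 0.237 to 2.42 CPM in hybrids. These levels are near 0, with a median of 0 for *LCP1* in *rhy* and in hybrids, and the sums of *rhy* and hybrids overlap, and the part of leukocytes in the level of *NLRP12* was not tested.

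*DNM2* encodes dynamin 2, the GTPase that pinches vesicles off membranes, and its model maker-ptg000173l-snap-gene-4.15 lies on the same contig as *PKD1*. Its level was 113 to 163 CPM in *com* (median 144), 110 to 130 CPM in *rhy* (median 124.7) and 122.8 to 141 CPM in hybrids (median 125.01). The hybrids differed from *com* by -0.15 (95% interval -0.37 to 0.07, adjusted p = 0.322) and from *rhy* by 0.09 (95% interval -0.13 to 0.30, adjusted p = 0.562). As ratios, these intervals run from 0.775 to 1.05 times *com* and from 0.913 to 1.23 times *rhy*. *PACSIN3*, which binds dynamin and bends membranes and was picked out after its values were seen, is another gene of the list of 39. It fell in hybrids against *com* by 0.65 (adjusted p = 0.00378) and was higher in hybrids than in *rhy* by 0.39 (adjusted p = 0.0475).

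*TULP4*, a member of the tubby-like family with a domain that recruits ubiquitin ligases, was measured on maker-ptg000051l-snap-gene-130.10. Its level in *com* was 217, 96.4, 139.8, 123.8 and 112 CPM, with com104 far above the other fish. In *rhy* it was 109 to 132 CPM and in hybrids 109.5 to 123.2 CPM. The hybrids differed from *com* by -0.28 (adjusted p = 0.250) and from *rhy* by -0.05 (95% interval -0.40 to 0.30, adjusted p = 0.858). The difference between the parents was -0.23 with all fish and -0.00 without com104, so its size rests on that library.

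The spread between fish was largest in *com*. The coefficient of variation (CV, the SD over the mean of 5 fish) was higher in *com* than in hybrids for 8 of 8 genes and higher in *com* than in *rhy* for 7 of 8, *NCL* being the exception. Among the 7918 genes with a mean count of at least 100 in each group, 67.0% had a higher CV in *com* than in hybrids and 65.6% a higher CV in *com* than in *rhy*, so much of this order is shared with other genes. The CV of *TULP4* was 34.2% in *com*, 8.15% in *rhy* and 4.64% in hybrids, and 95.9% of those genes had a larger CV in hybrids. *DUSP7* had 36.7%, 16.03% and 23.7%, and *PLEKHA8* 32.2%, 17.8% and 12.2%. The spread expected from counting alone was 0.843 to 6.22% of the mean over these genes and groups. In *com*, 5 of the 8 genes were highest in com104 and 5 were lowest in com121. In com121, 1 gene took 19.3% of the counts, and whether this matters here was not tested. In *rhy*, rhy49 was lowest for 4 genes and rhy50 highest for 4. The same counts were not made over all genes tested, so these describe the 8 alone.

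**Figure D4:**
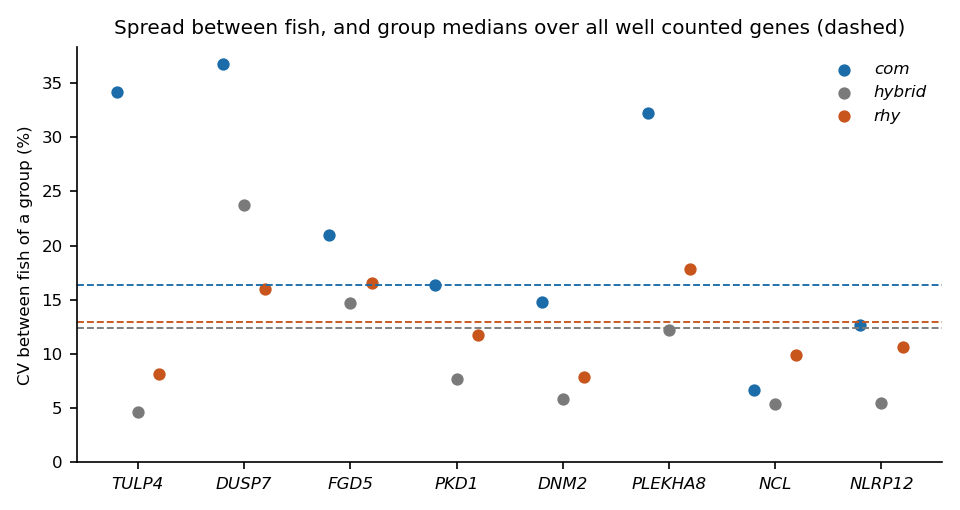
Coefficient of variation between the 5 fish of a group (vertical axis, percent, from 0) for the 8 genes in *com*, hybrids and *rhy* (points). Dashed lines give the group medians over 7918 well counted genes, 16.4% in *com*, 12.9% in *rhy* and 12.4% in hybrids; the *com* point is above the hybrid point for every gene, and 5 of the 8 hybrid points are under 8%.

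Several markers of cell types differed between the same groups, and the part of such cells in the results above was not tested. *KCNA7A_1*, *LCP1*, *SIGLEC1*, *MYOCD* and *TYRP1* are candidate genes of the study, kept for levels that rise or fall with discharge duration. These fish were among its samples, so differences of those markers between the groups follow in part from that choice. *SCN4AA*, *CD34*, *SCARF1*, *TMOD4* and *KLHL30* come from the same allele list as the genes described here. The 2 electrocyte markers summed to 3558 to 6116 CPM in *com*, 860 to 1095 CPM in *rhy* and 2740 to 3240 CPM in hybrids. The 2 skeletal muscle markers, *TMOD4* and *KLHL30*, summed to 564 to 760, 328 to 552 and 525 to 706 CPM, but went opposite ways. *TMOD4* had 452 to 624 CPM in *com*, 160.0 to 343 CPM in *rhy* and 374 to 544 CPM in hybrids, and *KLHL30* had 98.1 to 189.6, 166 to 218 and 151 to 164 CPM. The smooth muscle marker *MYOCD* had 2.14 to 4.18 CPM in *com*, 0 to 0.852 CPM in *rhy* and 1.25 to 2.85 CPM in hybrids. The pigment cell marker *TYRP1* had 0.134 to 1.33, 14.2 to 42.5 and 1.99 to 5.09 CPM.

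The other 31 genes of the list, all tested, give the setting of these 8. Between hybrids and *com* 3 of the 31 rose and 7 fell, where 21.9% of all genes tested passed. The median absolute log2 difference of the 31 was 0.26, against 0.42 for the 8 genes and 0.37 for all genes tested. Those that rose were *SYNGR3*, *KCNJ2* and *CD34*, and those that fell were *OGT*, *STK10*, *PACSIN3*, *OSBPL1A*, *ANKRD11*, *CCDC43* and *PPP1R3A*. Between hybrids and *rhy*, the median absolute difference of the 31 was 0.44, against 0.16 for the 8 genes and 0.41 for all genes tested. The 8 were chosen as alike in *com* and *rhy* on these same libraries. Neither their value here nor that against *com* is independent of that choice. Of the 31, 10 rose between hybrids and *rhy* and 9 fell, where 28.6% of all genes tested passed. Those that rose were *TMOD4*, *OGT*, *HIP1*, *PACSIN3*, *OSBPL1A*, *FILIP1*, *SCN4AA*, *SCARF1*, *C10orf71* and *PPP1R3A*, and those that fell were *SYNGR3*, *KCNJ2*, *KIF13B*, *B4GALNT1*, *CD34*, *STK10*, *RNF25*, *RANBP9* and 1 gene without a legible name. Against the mean of both parents 3 rose (*SYNGR3*, *SCN4AA* and *C10orf71*) and 3 fell (*CD34*, *STK10* and *ANKRD11*), where 13% of all genes tested passed. Between *rhy* and *com*, where the 8 genes were chosen to be alike, 20 of the 31 others passed, where 45.4% of all genes tested did so, and 13 also passed a log2 difference of 1, where 22.8% did so. Their median absolute difference was 0.69, against 0.41 for the 8 and 0.57 for all genes tested.

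Each of the 8 was set beside the gene of the list whose profile over the 15 libraries was most like its own, by the root mean square difference of centred log2 CPM among 36 named genes. For *NCL* this was *RNF25*, a ubiquitin ligase gene, at 0.21, where the SD of *NCL* itself was 0.50. For *FGD5* it was *CYFIP1* at 0.30, and for *PKD1* and *DUSP7* *KLHL30* at 0.26 and 0.37. For *PLEKHA8* it was *CCDC43* at 0.25 and for *NLRP12* *RANBP9* at 0.18. *TULP4* and *DNM2* were closest to *RANBP2*, at 0.24 and 0.20. The value for *DNM2* exceeds the SD of *DNM2* itself (0.17), so its closest gene was no nearer than a flat line. For *NLRP12* (SD 0.18) the closest gene was about as far away as a flat line. *TULP4* (SD 0.27) was only slightly nearer to its closest gene than to a flat line.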

How the data were processed

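Electric organ RNA of 15 juvenile fish was analysed, 1 library per fish, in groups taken from the sample labels. After trimming with Trimmomatic (version 0.39), the authors mapped reads to the genome of *C. compressirostris* and counted with RSEM (the aligner it used is not given in the sources used here). Expected counts, TPM and effective lengths were used as deposited by the authors. FPKM was not used. The 8 genes, the lists of other genes and of markers, and the tests were chosen with earlier results of these data known.

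Expected counts were rounded. Genes had to exceed a count of 10 in 2 or more libraries, which 18489 did. They were fitted in edgeR (version 4.0.16) under R (version 4.3.3) by quasi-likelihood, with TMM scaling and 1 coefficient per group. A call needed a p under 0.05, adjusted by Benjamini and Hochberg's method across these genes, with and without a log2 limit of 1. For the 8 genes no p is given between *rhy* and *com*, which the choice used. Log2 CPM used a prior count of 2. Named are the 8 genes, the list genes called in a contrast with hybrids, and the nearest list gene to each of the 8. Gene names come from the study's tables alone.

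Within groups, the chi-square between the counts of 2 libraries, per degree of freedom, was 18.9 to 126 over 30 pairs, so none is a copy. Within *com* it was 73.8 to 126 for pairs with com104 and 22.4 to 88.3 for the other pairs. The labels name no batch. Steps were tested on simulated data. The alternatives tried were filterByExpr, no filter, size factors of DESeq2 in edgeR, DESeq2 itself (version 1.42.0), an effective length offset, only the groups compared, unrounded counts, limma (version 3.58.1) on log2(TPM + 0.1) and log2(TPM + 1), and each fish left out. Python (version 3.11.15) and matplotlib (version 3.10.9) drew the plots.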

Additional observations from a re-analysis of the deposited data

Results flagged for a closer look

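In 4 of 24 groups of 5 fish (8 genes in 3 groups), 1 fish stood apart from the rest by Dixon's test. For normally distributed values, chance flags about 1 in 20 groups. How often all genes are flagged in these libraries was not computed, and the genes share libraries, so no excess is shown. All 4 flagged values were the highest of the hybrids, each for another gene. *TULP4* had 123.2 CPM in comrhy63, where the other hybrids had 109.5 to 112.6 CPM. *FGD5* had 93.1 CPM in comrhy61, against 66.5 to 72.8 CPM. *DNM2* had 141 CPM in comrhy60, against 122.8 to 125.8 CPM. *NLRP12* had 50.4 CPM in comrhy62, against 44.5 to 45.8 CPM. For *TULP4* and *NLRP12* the flagged fish lay inside the range of *com*, as it did for *DNM2*, and for *FGD5* inside the range of *rhy*.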

How the results depend on the processing

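Over 9 alternative settings and 15 fits that each left out 1 fish, no called difference reversed. The calls of *NCL* against *rhy* and against the mean of both parents, and of *FGD5* and *PKD1* in hybrids against *com*, held in each of these fits that gave the contrast. For *PLEKHA8*, the adjusted p against *com* ranged from 0.0179 to 0.158 over the settings and from 0.0170 to 0.119 over the left-out fish. *DUSP7* passed against *com* on TPM (adjusted p = 0.0347 with a pseudocount of 0.1 and 0.0337 with 1).

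Against the mean of both parents, 1 of the 8 genes passed in the fit reported and 2 in DESeq2, and 1 to 2 with a fish left out (2 without com121). Against *rhy*, 1 passed in the fit reported and 2 in DESeq2, and 1 to 2 with a fish left out (2 without com104). With the log2 limit of 1, the count against *rhy* was 1 in the fit reported, 0 without a filter, 0 on log2(TPM + 0.1) and 0 on log2(TPM + 1), and 0 to 1 with a fish left out (0 without comrhy62, comrhy63, rhy50, rhy52 or rhy53), since *NCL* lies at that limit. The cause of the other changes was not tested.

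Scaling by TPM moved the median of all genes by 0.15 between *rhy* and *com* and by 0.16 or 0.15 between hybrids and *com*, and other scalings by at most 0.02 in either direction. No paired analysis was possible because the groups share no replicate numbers. The spread expected from counting alone in *com* was larger for *DUSP7* (6.22% of a mean of 258.8 counts) than for *NCL* (1.46% of 4681). Both lay below the CV between *com* fish, 36.7% and 6.67%.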
